A study of Mus musculus with 2 samples.

Results

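Fcgbp, Sult5a1, Kcnc4, Srcin1 and Was are 5 of the 19465 genes measured in spatial transcriptomes of mouse skin. They were chosen because their levels were higher in both retinoid-treated skins than in irradiated skin without treatment. The levels of treated over irradiated skin therefore chose the genes, and those ratios are given as a description. Skin came from female SKH-1 mice, a hairless strain, aged 10 to 12 weeks and weighing 22 to 25 g. The 4 groups were normal skin (control), irradiated skin (ultraviolet radiation, UVR), irradiated skin given retinol at 0.1%, and irradiated skin given 9-cis HPR at 0.03%. The radiation dose, the treatment times and the number of animals behind each section are not given in the sources used here. Each group was 1 section, so there were no replicates and no test could be run. Every interval below covers counting error only, and differences between animals were not measured.

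The sections were laid on Visium slides, which record transcripts at barcoded spots, each wide enough to hold several cells. The UVR and control sections shared one capture area and both treated sections shared the other, so treatment and capture area cannot be told apart in any ratio of a treated section to the UVR or control section. The labels place the sections as upper and lower; here the section with the smaller image rows was taken as upper. The spot grid runs the other way, and reading it instead exchanges UVR with control and retinol with 9-cis HPR. Under that reading the section with low Fcgbp, Srcin1 and Was would be the control, and the ratios of those 3 genes for retinol over UVR would be 0.775, 0.669 and 0.859, below 1. The corresponding grid ratios for Sult5a1 and Kcnc4 would be 3.06 and 4.17, above 1 as in the reading used. Spots with at least 200 unique molecular identifiers (UMIs, counts of single captured molecules) were kept, 339 to 647 a section. The sections held 326095 to 2558616 UMIs, control the fewest and UVR the most. Levels are CPM, the UMIs of a gene scaled to a section total of 1000000, and a gene with no UMI could still have reached 9.20 CPM in control skin, against 1.17 to 2.40 CPM in the other 3 sections. Keratins and other epidermal markers were abundant in every section, with 6347 to 131403 UMIs summed over 7 basal keratinocyte markers and 21297 to 68540 over 11 suprabasal and cornified markers.

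The 5 genes belong to no common pathway. Fcgbp encodes a large secreted protein of mucus that was named for binding the Fc part of IgG. Sult5a1 belongs to the cytosolic sulfotransferases, enzymes that pass sulfate from the donor PAPS to small molecules. Kcnc4 encodes a Shaw-type voltage-gated potassium channel subunit. Srcin1 encodes a scaffold protein that restrains SRC kinase signalling. Was encodes the Wiskott-Aldrich syndrome protein, which switches on the actin-nucleating Arp complex in blood-derived cells and is used as a leukocyte gene. Retinoids act on skin through nuclear retinoic acid receptors, which bind pairs of AGGTCA-type sites in DNA, and retinol is converted in cells to the acid that binds them. Epidermis renews from a basal layer and ends in cornified cells, with dermis, fat and, in mouse trunk skin, a sheet of muscle below.

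In the reference annotation (GRCm38.p6, the same assembly as mm10) Fcgbp lies at chr7:28071236-28120864, Sult5a1 at chr8:123142843-123158914, Kcnc4 at chr3:107438298-107460287, Srcin1 at chr11:97509340-97575246 and Was at chrX:8081466-8090491, so each lies on a chromosome of its own. RefSeq promoter sequences matched 4 of the 5 genes. The 250 bases before the start listed in the RefSeq promoter table are shown for Fcgbp (chr7:28070986-28071235, plus strand) and Sult5a1 (chr8:123158281-123158530, minus strand), the genes with the largest ratios of retinol-treated to UVR skin. For Sult5a1 and Kcnc4 that start lies inside the annotated span of the gene, whose 5′ end on the minus strand is farther upstream, so their windows do not precede the whole gene. Both sequences read 5′ to 3′, and capitals mark a TATATAA box.
Fcgbp: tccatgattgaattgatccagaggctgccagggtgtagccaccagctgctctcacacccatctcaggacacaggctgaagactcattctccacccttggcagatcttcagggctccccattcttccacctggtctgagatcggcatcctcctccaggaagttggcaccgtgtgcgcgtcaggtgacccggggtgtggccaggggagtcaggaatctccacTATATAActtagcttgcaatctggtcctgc
Sult5a1: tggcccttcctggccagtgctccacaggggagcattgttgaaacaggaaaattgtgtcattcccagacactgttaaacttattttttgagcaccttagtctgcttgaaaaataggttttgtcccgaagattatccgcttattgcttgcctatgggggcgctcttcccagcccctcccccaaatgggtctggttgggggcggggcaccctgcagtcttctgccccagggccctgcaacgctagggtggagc
The exact sequence AGGTCA, a form of the receptor site, was searched on both strands in the 250-base windows of Fcgbp, Sult5a1, Kcnc4 and Was. It had no match in any of them, and 14.0% of 32851 RefSeq windows of that length hold one. Other forms of the site were not searched, so these windows may still hold them. Direct repeats of AGGTCA spaced by 1, 2 or 5 bases, which contain it, had no match there either. The TATATAA box of Fcgbp lies at bases -30 to -24 from the start, and 3.04% of all windows hold that motif on either strand. The box was searched after the Fcgbp sequence had been read. Members differed in base composition, from 53.6% G and C in the Was window to 68% in that of Kcnc4, beside a median of 52.4% over all windows.

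Fcgbp was lowest in UVR skin and highest after retinol. Its level was 107 CPM in control skin (35 UMIs, exact Poisson 95% interval 74.8 to 149), 11.3 CPM in UVR skin (29 UMIs, 7.59 to 16.3), 293 CPM in retinol-treated skin (414 UMIs, 265 to 322) and 83.2 CPM in HPR-treated skin (104 UMIs, 68.0 to 101). The intervals of control and HPR-treated skin overlap, and the other 2 sections stand apart from them and from each other. Relative to UVR skin the level was 25.8-fold after retinol (Clopper-Pearson 95% interval 17.7 to 39.0) and 7.34-fold after 9-cis HPR (4.82 to 11.5). UVR skin itself was 9.47-fold below control skin (5.62 to 16.1). Retinol-treated skin was 2.73-fold above control (1.93 to 3.97), while the HPR-treated section was at 0.775 of control (0.524 to 1.17), an interval that holds 1. The doses of retinol and 9-cis HPR differ, so their values are set side by side without a comparison of the compounds.

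Sult5a1 was low in both untreated skins and higher in both treated ones. Its level was 46.0 CPM in control skin (15 UMIs, 25.7 to 75.9), 25.0 CPM in UVR skin (64 UMIs, 19.3 to 31.9), 270.0 CPM after retinol (382 UMIs, 244 to 298) and 141 CPM after 9-cis HPR (176 UMIs, 121 to 163). Control and UVR intervals overlap, and neither reaches those of the treated sections. The ratio to UVR skin was 10.8 for retinol (8.26 to 14.3) and 5.63 for 9-cis HPR (4.21 to 7.62). Against control skin the ratios were 5.87 (3.51 to 10.6) and 3.06 (1.81 to 5.59), and UVR over control was 0.544 (0.306 to 1.03).

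Kcnc4 had the same pattern as Sult5a1 except that the HPR-treated section was the highest. The level was 36.8 CPM in control (12 UMIs, 19.0 to 64.3), 32.8 CPM in UVR (84 UMIs, 26.2 to 40.6), 95.4 CPM in retinol-treated (135 UMIs, 80.0 to 113) and 154 CPM in HPR-treated skin (192 UMIs, 133 to 177). The channel gene was 2.91-fold above UVR skin after retinol (2.20 to 3.86) and 4.68-fold above it after 9-cis HPR (3.60 to 6.12). Its treated levels were also 2.59-fold (1.44 to 5.14) and 4.17-fold (2.34 to 8.22) those of control, and UVR over control was 0.892 (0.485 to 1.80). The control value rests on 12 UMIs, which leaves the ratios to control wide.

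Srcin1 was high in control skin, low in UVR skin and intermediate in both treated skins. Its level was 2070 CPM in control (675 UMIs, 1917 to 2232), 302 CPM in UVR (773 UMIs, 281 to 324), 1490 CPM after retinol (2108 UMIs, 1427 to 1555) and 1385 CPM after 9-cis HPR (1731 UMIs, 1320 to 1452). UVR skin was 6.85-fold below control (6.17 to 7.61), the narrowest interval of the 5 genes because its counts were the largest. Both treated skins were above UVR skin, by 4.93-fold (4.54 to 5.36) and 4.58-fold (4.21 to just under 5). They stayed below control, at 0.720 (0.660 to 0.786) and 0.669 (0.612 to 0.732) of its level.

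Over whole sections, Was was low in UVR skin alone. It stood at 178 CPM in control (58 UMIs, 135 to 230), 34.8 CPM in UVR (89 UMIs, 27.9 to 42.8), 172 CPM after retinol (244 UMIs, 151 to 195) and 153 CPM after 9-cis HPR (191 UMIs, 132 to 176). The intervals of control and both treated skins overlap, and that of UVR skin lies below all 3. UVR skin was 5.11-fold below control (3.61 to 7.20). Treated over UVR ratios were 4.96 (3.87 to 6.39) and 4.39 (3.40 to 5.72), and treated over control ratios were 0.970 (0.725 to 1.31) and 0.859 (0.637 to 1.17), intervals that hold 1. The ratios to control depend on the tissue counted. Apart from the grid reading, retinol over control ran from 0.701 on the left sides of the sections to 1.78 (1.10 to 3.02) in the first 3 rows of spots. In those rows 9-cis HPR over control was 1.27 (0.772 to 2.20).

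**Figure D1:**
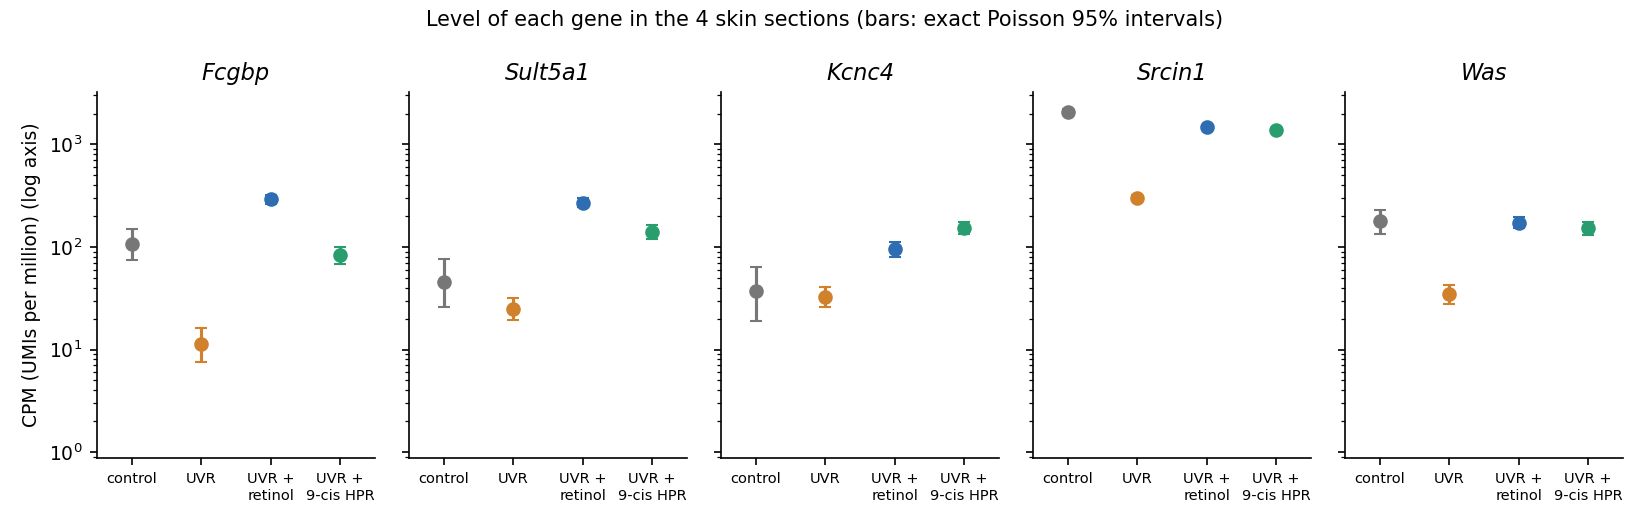
Level of each gene in CPM (log axis) in the 4 sections; points are whole sections and bars exact Poisson 95% intervals. UVR skin has the lowest point in every panel, control lies beside it for Sult5a1 and Kcnc4, and control reaches or passes the treated sections for Srcin1 and Was.

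The 5 genes thus fall into 2 patterns that the choice of genes did not fix, since control skin was not part of it. For Fcgbp, Srcin1 and Was, UVR skin was 5.11-fold to 9.47-fold below control. For Sult5a1 and Kcnc4, the interval of UVR over control holds 1 and both treated skins lay at least 2.59-fold above control. These ratios share the UVR section with those that chose the genes, so a low value there counts in both. Their size also depends on how tissue is weighed: Was in UVR skin was at 0.196 of control over the whole section and at 0.380 with the 3 layers weighted alike. Fcgbp, at 0.106, was at 0.0518 in the first 3 rows of spots and at 0.0571 with sections thinned to equal totals. Thinning was a single random draw that left few of the 29 Fcgbp UMIs of UVR skin, so thinned values carry sampling noise. For Sult5a1, UVR over control ran from 0.282 on the right sides of the sections to 1.11 with layers weighted alike, and for Kcnc4 it was 0.583 at equal totals.

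**Figure D2:**
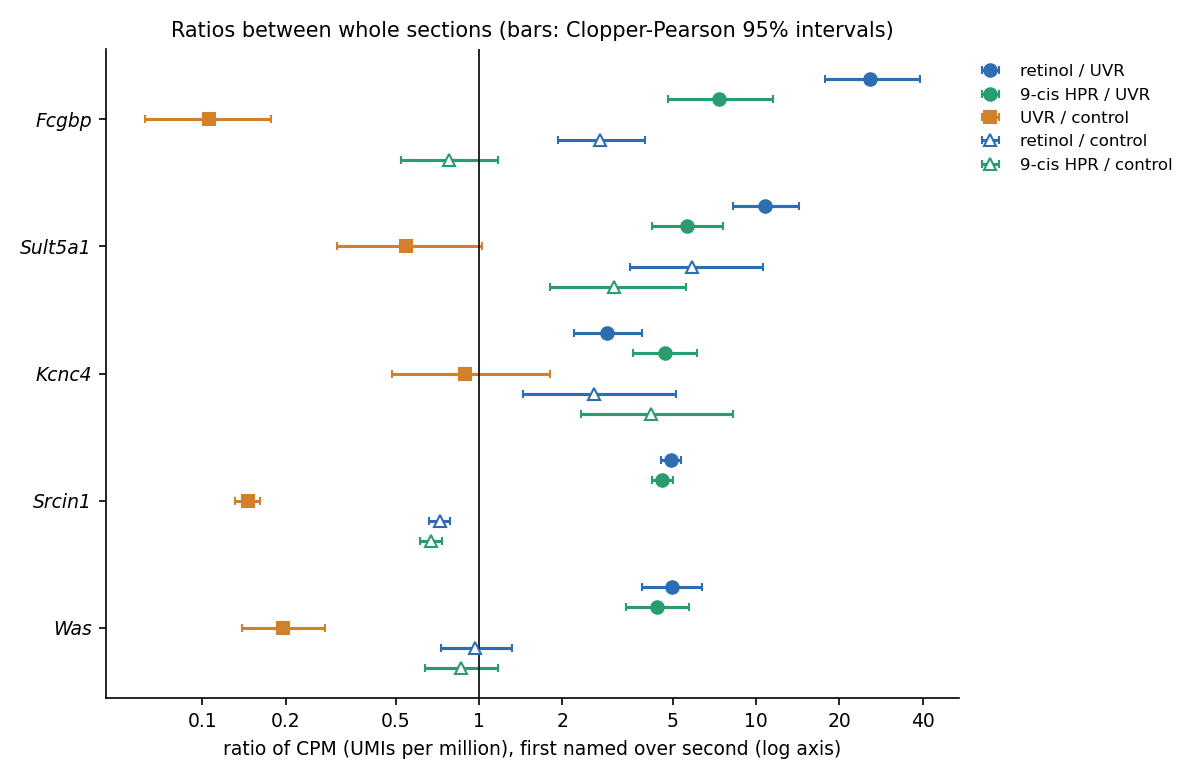
Ratios of whole-section levels on a log axis, first named section over second, with Clopper-Pearson 95% intervals and a line at 1. Filled circles (treated over UVR) lie right of the line for all 5 genes because they chose the genes; squares (UVR over control) lie far left for Fcgbp, Srcin1 and Was, from 0.106 to 0.196, and open triangles (treated over control) lie right of the line in both treatments for Sult5a1 and Kcnc4.

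The same sizes were counted over all genes with at least 100 UMIs in the sections compared. All 5 genes were at least 2-fold higher than UVR skin after retinol, beside 4.23% of 2932 genes, and after 9-cis HPR, beside 3.41% of 2813 genes. The count in both treatments at once was 60 of 2785 genes, or 2.15%. Nothing is read from these counts, because this contrast chose the genes. At 4-fold in both treatments there were 9 genes of 2785 (0.323%), and Fcgbp, Sult5a1, Srcin1 and Was were 4 of them; Kcnc4 missed this size after retinol. UVR skin was at least 2-fold below control for 7.61% of 2510 genes, among them Srcin1 and Was, the 2 members with enough UMIs to be counted there. With a minimum of 20 UMIs the background was 17.4%, and Fcgbp joined them, so 3 of the 5 passed. UVR over control shares its UVR section with the contrast that chose the genes, so nothing is read from the members' place here. The joint pattern of UVR skin 2-fold below control and both treated skins 2-fold above UVR was met by 18 of 2497 genes (0.721%), Srcin1 and Was among them. The other pattern, both treated skins at least 2-fold above both UVR and control skin, was met by 13 of 1594 genes (0.816%), and Sult5a1 and Kcnc4 were 2 of these. Both patterns and the 4-fold count contain the contrast that chose the genes, so nothing is read from the members' place in them either.

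Place in the tissue was not used to choose the genes. Spots were numbered in each grid column from the outer edge of the section inwards, a scheme set after the maps of the spots had been seen. Summed over the suprabasal and cornified marker list, the outermost row held 57495 to 120416 CPM and the third row 4324 to 22036 CPM over the 4 sections. The rows below that did not hold the same tissue in every section. Summed over the basal keratinocyte list, rows 1 to 6 of UVR skin stayed between 47448 and 64614 CPM. From row 1 to row 6 that sum went from 22356 to 8321 CPM in control, from 25843 to 13780 CPM after retinol and from 22432 to 14163 CPM after 9-cis HPR. A ratio of the first row to rows 4 to 6 therefore describes its own section and is not compared between UVR skin and the others. The first 3 rows, for which ratios of treated to UVR skin are given, also held more of the basal list in UVR skin than in any other section, where it reached at most 40524 CPM in a row. The outer edge was not equally complete: in retinol-treated skin the outermost listed spot lay in the last 2 occupied grid rows in 45 of 64 columns, a straight edge, against 28 of 64 in HPR-treated, 6 in UVR and 7 in control skin. How much of the surface lies outside the listed spots was not tested.

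By rows, Srcin1 was higher at the outer edge than in rows 4 to 6 of control and treated skin; in UVR skin the interval of that ratio holds 1, although a split of the same section by keratinocyte markers put more Srcin1 in its cornified-rich spots. In the first row its level was 3332 CPM in control (368 UMIs), 413 CPM in UVR (167 UMIs), 2767 CPM after retinol (806 UMIs) and 3557 CPM after 9-cis HPR (396 UMIs). In rows 4 to 6 together it was 484, 388, 1215 and 1356 CPM, in that order. The first row was thus 6.88-fold above rows 4 to 6 in control (4.62 to 10.7) and 1.06-fold in UVR (0.863 to 1.31). It was 2.28-fold above them after retinol (1.91 to 2.72) and 2.62-fold after 9-cis HPR (2.22 to 3.10). The decline inwards was not even in treated skin. After 9-cis HPR rows 2, 3, 4 and 5 held 1811, 671, 1178 and 1939 CPM, and after retinol rows 3 and 4 held 1069 and 1379 CPM. Among keratinocyte-rich spots, split in each section by their share of cornified over basal markers, cornified-rich spots held 1.18 times the Srcin1 level of basal-rich spots in control (0.994 to 1.41), 1.54 times in UVR (1.31 to 1.80), 2.40 times after retinol (2.18 to 2.66) and 2.59 times after 9-cis HPR (2.32 to 2.90). The cornified gene Lor, split the same way, was 2.95-fold to 14.3-fold higher in the cornified-rich spots, so the split worked least sharply in control skin. Rows and marker split thus give the sections a different order: UVR skin had the lowest ratio by rows, and control skin, with an interval that holds 1, the lowest by markers.

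The summed suprabasal and cornified markers, in which abundant genes weigh most, did not follow Srcin1 across sections. They stood at 65309 CPM in control, 26788 in UVR, 19754 after retinol and 27596 after 9-cis HPR. Both the marker sum and Srcin1 were highest in control skin. After retinol the marker sum was below that of UVR skin, and after 9-cis HPR it was close to it. Srcin1 was 4.58-fold to 4.93-fold above UVR in treated skin. Single markers can differ from the sum: in a cluster of the outer layer, Srcin1 and Kcnc4 were among the most raised genes together with the list markers Hrnr and Flg. That cluster held 0 control, 12 UVR, 80 retinol-treated and 100 HPR-treated spots. The place of Srcin1 and Kcnc4 among its genes thus largely repeats the contrast that chose them, and nothing is read from it.

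**Figure D3:**
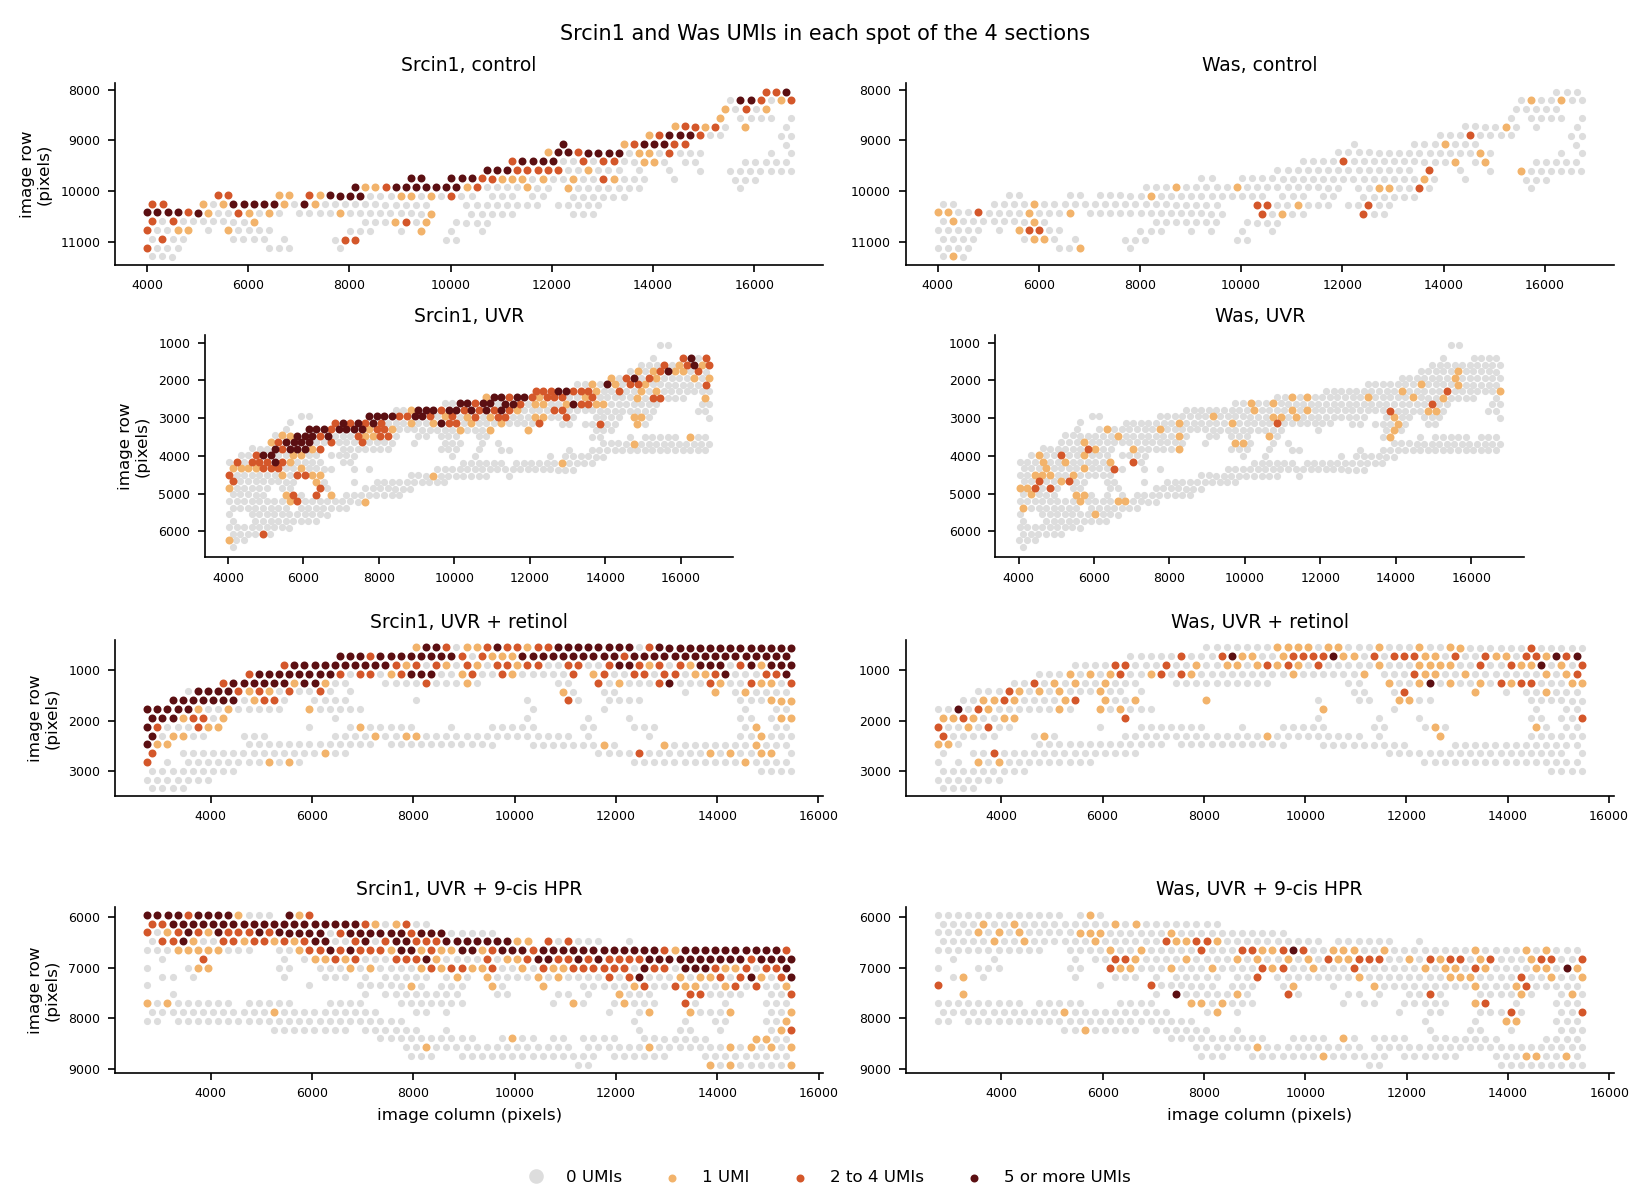
Spots of the 4 sections at their image positions (pixels), coloured by the UMIs of Srcin1 (left) and Was (right); grey spots hold 0. The spots richest in Srcin1 line the upper, outer edge in control and treated skin, with 144 of 339 spots holding a UMI in control and 255 of 544 after retinol, while Was is scattered and extends below that edge.

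Kcnc4 was higher in the first row than in rows 4 to 6 of UVR and treated skin, and was also found in muscle. First-row levels were 18.1 CPM in control (2 UMIs), 56.9 CPM in UVR (23 UMIs), 161 CPM after retinol (47 UMIs) and 252 CPM after 9-cis HPR (28 UMIs), and rows 4 to 6 held 18.6, 14.9, 23.8 and 24.2 CPM. The first row was 3.81-fold above rows 4 to 6 in UVR (1.65 to 9.85), 6.77-fold after retinol (2.18 to 34.0) and 10.4-fold after 9-cis HPR (3.63 to 40.8), and with 3 UMIs the control section gives no usable ratio. Cornified-rich over basal-rich ratios were 3.70 in UVR (1.86 to 8.19), 1.76 after retinol (1.18 to 2.65) and 2.78 after 9-cis HPR (1.95 to 4.01). Restricted to the first 3 rows, the treated over UVR ratios of Kcnc4 were 2.85 (2.05 to 4.01) and 4.92 (3.60 to 6.81), close to those of the whole section.

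Fcgbp and Sult5a1 spread through the upper rows instead of peaking in the first. Fcgbp had 254 CPM in the first row and 381 CPM in rows 4 to 6 of retinol-treated skin, a ratio of 0.666 (0.457 to 0.979). Sult5a1 happened to hold the same UMIs in both places there, 74 and 48, and so has the same ratio. In HPR-treated skin the first row over rows 4 to 6 was 0.645 for Fcgbp (0.274 to 1.41) and 0.412 for Sult5a1 (0.182 to 0.848). Fcgbp had no UMI in the first row of UVR skin, where 17 UMIs lay in rows 4 to 6, while in control skin 94.3% of its 35 UMIs fell in the first 3 rows beside 68.9% of all UMIs. In the first 3 rows, retinol over UVR was 41.8 for Fcgbp (23.6 to 81.7) and 16.9 for Sult5a1 (11.4 to 26.1), and 9-cis HPR over UVR was 11.3 (6.10 to 22.7) and 8.49 (5.58 to 13.4). Split by keratinocyte markers, basal-rich spots had more Sult5a1 than cornified-rich spots after retinol, 1.56-fold (1.25 to 1.95), and after 9-cis HPR, 1.55-fold (1.09 to 2.24). Fcgbp was 2.70-fold higher in basal-rich spots after 9-cis HPR (1.61 to 4.72) and 1.14-fold after retinol (0.923 to 1.42), an interval that holds 1.

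Was had a higher level in rows 4 to 6 than in the first row of every section. Its first-row level was 45.3 CPM in control (5 UMIs), 12.4 CPM in UVR (5 UMIs), 68.7 CPM after retinol (20 UMIs) and 53.9 CPM after 9-cis HPR (6 UMIs), and rows 4 to 6 held 540, 61.6, 421 and 309 CPM. Rows 4 to 6 were above the first row by 11.9-fold in control (4.56 to 39.5), 4.98-fold in UVR (1.93 to 16.3), 6.13-fold after retinol (3.60 to 10.8) and 5.73-fold after 9-cis HPR (2.46 to 16.3). All 4 intervals lie above 1. A list of 19 other leukocyte genes, summed, also increased inwards: from the first to the sixth row it went from 145 to 1596 CPM in control, 14.8 to 296 CPM in UVR, 61.8 to 1083 CPM after retinol and 53.9 to 564 CPM after 9-cis HPR. In the first 3 rows Was was 12.5-fold above UVR after retinol (7.75 to 21.2) and 8.92-fold after 9-cis HPR (5.42 to 15.4). These rows held 32.8% of Was UMIs in control, 21.3% in UVR, 70.1% after retinol and 51.8% after 9-cis HPR. Of all UMIs they held 68.9%, 61.7%, 80.5% and 73.8%, in that order.

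**Figure D4:**
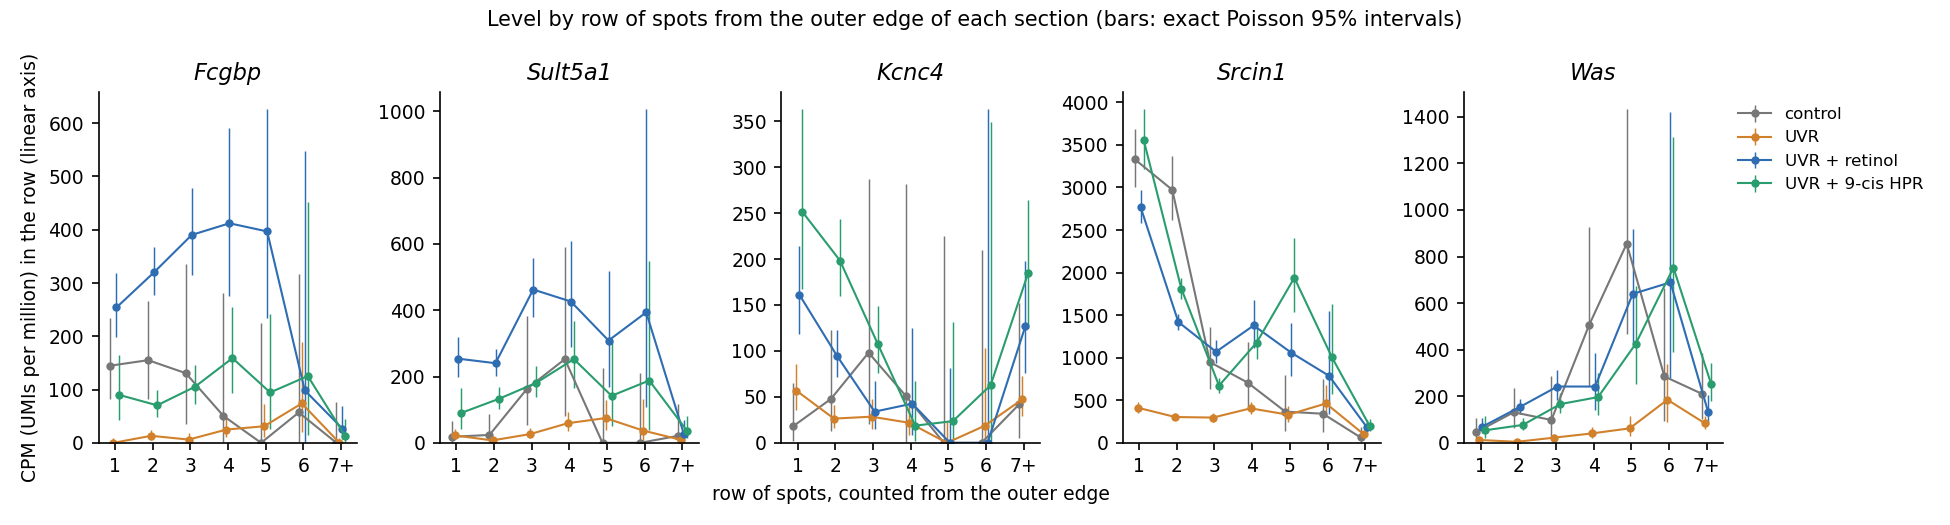
Level of each gene (CPM within a row of spots, linear axis) by row counted from the outer edge, with row 7+ pooling the seventh and deeper rows; lines join the rows of a section and bars are exact Poisson 95% intervals. Srcin1 and Kcnc4 are highest in the first rows of treated skin, Fcgbp and Sult5a1 are spread over the first 5 rows, and Was peaks in rows 5 and 6.

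Spots were also grouped into layers by clustering without the 5 genes. The outer layer held 80.7% to 90.1% of the UMIs of a section, the dermal layer (rich in Ctss, Ctsz and Col1a1) 1.22% to 6.54%, and the muscle layer 8.11% to 12.8%. Some clusters of the outer layer came almost wholly from 1 section, and the muscle clusters were unevenly shared, so layers, not clusters, were compared. Within the outer layer, retinol over UVR was 24.6 for Fcgbp, 10.6 for Sult5a1, 3.27 for Kcnc4, 4.76 for Srcin1 and 5.38 for Was. The same ratios for 9-cis HPR were 7.06, 5.58, 5.11, 4.46 and 4.36. Each lies within the interval of its whole-section ratio, from which it could differ little because the outer layer held most UMIs. That layer takes in every cluster not named muscle or dermal. Its cluster with most spots held 14.4% of UMIs in control, 5.11% in UVR, 22.9% after retinol and 13.8% after 9-cis HPR. The median fibroblast marker log2 fold there was 1.17. Without that cluster 9 outer ratios to UVR stayed within their intervals and 1 did not.

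Fcgbp and Sult5a1 were found almost wholly in the outer layer. Of their UMIs 99.0% or more (Fcgbp) and 96.9% or more (Sult5a1) lay there in each section, with at most 1 UMI of Fcgbp and 2 of Sult5a1 in any dermal or muscle layer. Srcin1 had 98.4% to 99.2% of its UMIs in the outer layer. Its muscle level was 12.0-fold to 26.5-fold below its outer level, at 96.0 CPM in control, 25.3 in UVR, 131 after retinol and 128 after 9-cis HPR. These low muscle levels of 4 to 15 UMIs were again lowest in UVR skin. Control muscle, on 4 UMIs, was below both treated skins, while over whole sections control was the highest. Transcripts of the surface also reached muscle spots, where the suprabasal and cornified marker list summed to 590 to 2903 CPM, and the part of this in the muscle levels was not tested.

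Kcnc4 was also found in the muscle layer. It stood at 48.0 CPM in control muscle (2 UMIs), 66.3 CPM in UVR (21 UMIs), 139 CPM after retinol (16 UMIs) and 256 CPM after 9-cis HPR (30 UMIs). Muscle was above the outer layer 2.33-fold in UVR (1.35 to 3.87) and 1.76-fold after 9-cis HPR (1.15 to 2.61), while the retinol ratio of 1.49 (0.828 to 2.53) has an interval that holds 1. No Kcnc4 UMI fell in the dermal layer of any section, which allows up to 96.1 to 145 CPM there. In muscle, treated over UVR was 2.10 after retinol (1.03 to 4.23) and 3.86 after 9-cis HPR (2.14 to 7.10). The muscle spots compared were not alike. A Myh4-rich muscle cluster held 131 spots in UVR, 57 in retinol-treated and 3 in HPR-treated skin, and the other muscle cluster 36, 77 and 191. Within the muscle layer the skeletal muscle list summed to 281180 CPM in UVR, 223025 after retinol and 139068 after 9-cis HPR, and the suprabasal and cornified list to 590, 1003 and 2118 CPM. The part of these differences in the muscle ratios was not tested. The skeletal muscle marker sum was also lower over whole treated sections, from 43862 CPM in control and 35638 in UVR to 18446 after retinol and 13493 after 9-cis HPR.

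Was had its highest level in the dermal layer, although most of its UMIs in UVR and treated skin lay in the outer layer. The cluster that made up the dermal layer was rich in macrophage and dendritic markers (median log2 fold 2.63) as well as fibroblast markers (2.83). Its levels are therefore not those of dermis in general. Its dermal level was 1595 CPM in control (34 UMIs), 609 CPM in UVR (19 UMIs), 1410 CPM after retinol (35 UMIs) and 1600 CPM after 9-cis HPR (33 UMIs). The dermal level exceeded the outer level 18.2-fold in control (10.4 to 32.4), 20.1-fold in UVR (11.4 to 33.8), 8.65-fold after retinol (5.86 to 12.4) and 12.1-fold after 9-cis HPR (8.04 to 17.8). With layers drawn from marker shares the last 2 ratios were 4.42 and 3.98, more than 1.5 times lower. Within the dermal layer, treated over UVR was 2.32 (1.29 to 4.29) and 2.63 (1.45 to 4.89), and UVR was 2.62-fold below control. In the outer layer, where most Was UMIs of UVR and treated skin lay, the level was 87.4 CPM in control, 30.3 in UVR, 163 after retinol and 132 after 9-cis HPR. Both treated skins were thus above control in this layer, unlike over whole sections.

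**Figure D5:**
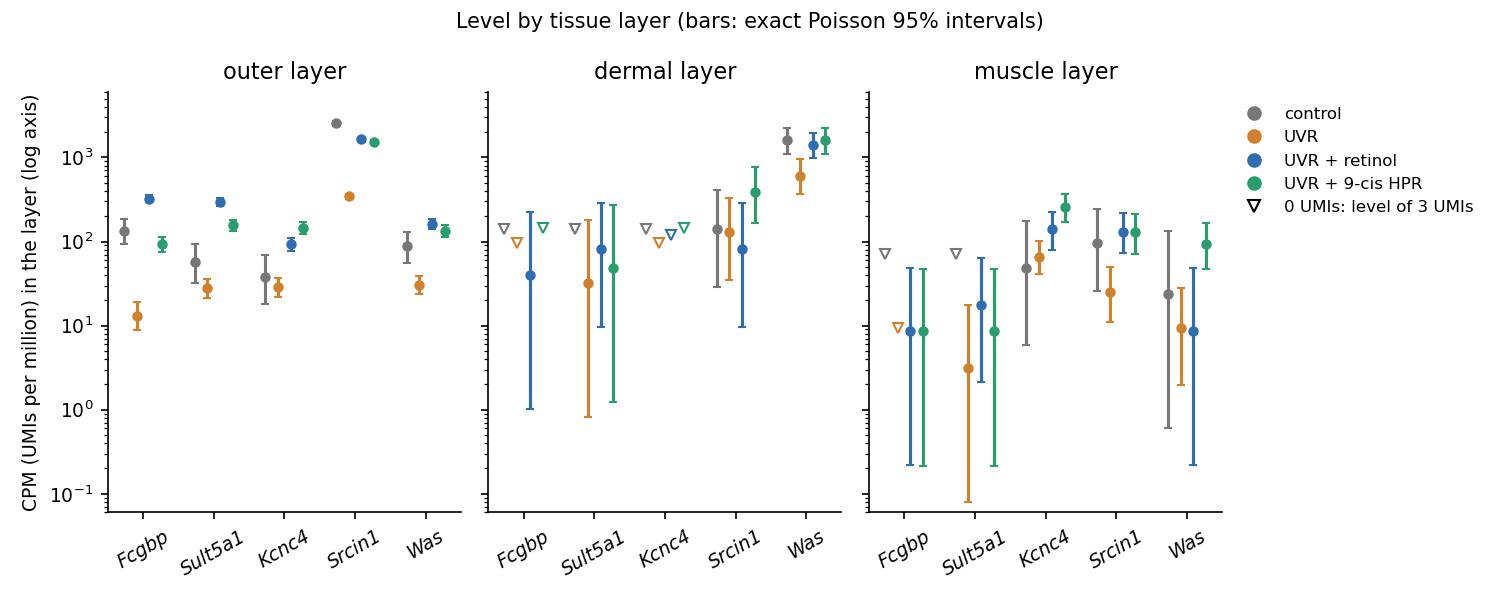
Level of each gene (CPM within the layer, log axis) in the outer, dermal and muscle layers of the 4 sections, with exact Poisson 95% intervals; open triangles mark layers with 0 UMIs at the level that 3 UMIs would give. Was is highest in the dermal panel, at 609 to 1600 CPM, Kcnc4 reaches 256 CPM in muscle, and Fcgbp and Sult5a1 have at most 2 UMIs outside the outer layer.

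The summed leukocyte list was lowest in UVR skin, as Was was, but so were the fibroblast, macrophage and erythroid lists. The endothelial, T and NK, mast, and Schwann and melanocyte lists were lowest there too. Sebaceous, hair follicle, adipocyte, B and plasma, and neutrophil lists were lowest in another section. Summed over 19 other genes of the leukocyte list, of which 2 to 5 had no UMI in a section, the level was 377 CPM in control, 83.6 in UVR, 145 after retinol and 177 after 9-cis HPR. In the outer layer the sums were 239, 56.1, 117 and 108 CPM, and in the dermal layer 2533, 2306, 2055 and 3782 CPM. The dermal sum thus did not follow Was, which was at 609 CPM in UVR and 1410 CPM in retinol-treated dermal spots. Over whole sections the fibroblast list stood at 1969 CPM in control, 516 in UVR, 886 after retinol and 1667 after 9-cis HPR, the macrophage and dendritic list at 1125, 143, 269 and 366 CPM, and the erythroid list at 163, 20.3, 73.5 and 72.8 CPM. The dermal layer itself held 6.54% of the UMIs of control and 1.22% of those of UVR skin. The list had 8 members with at least 20 UMIs in each treated comparison, of which 4 were at least 2-fold higher than UVR and none 2-fold lower, beside 6.31% (retinol) and 5.93% (9-cis HPR) of all genes at least 2-fold higher. Its median log2 ratio was 1.02 and 1.06, beside -0.11 and -0.15 over all genes. Tyrobp, an adaptor of myeloid receptors, was at 76.7, 23.1, 24.7 and 42.4 CPM in control, UVR, retinol-treated and HPR-treated skin. Coro1a, an actin-binding protein of leukocytes, was at 55.2, 10.2, 28.3 and 17.6 CPM. In these bulk levels of spots, more leukocytes and more Was RNA per cell cannot be told apart. The part of leukocyte or dermal content in the Was ratios was not tested.

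Of 16 other WASP family and Arp complex genes with at least 20 UMIs, none was 2-fold higher than UVR in either treated skin, 2 were 2-fold lower after retinol and 1 after 9-cis HPR. Of all genes at that minimum, 6.31% and 5.93% were 2-fold higher and 13.3% and 14.4% 2-fold lower after retinol and 9-cis HPR, so about 1 of 16 higher and 2 of 16 lower is the background, and the counts of this list lie near it. The list's median log2 ratios were -0.33 and -0.35, beside -0.11 and -0.15 over all genes. Actr3, a core subunit of the complex, was at 1668, 1650, 972 and 1268 CPM in control, UVR, retinol-treated and HPR-treated skin, and Arpc1b, another subunit, at 294, 333, 408 and 356 CPM.

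Of the SRC kinases and known partners of Srcin1, 8 were measured. None was 2-fold higher in either treatment, 1 was 2-fold lower after 9-cis HPR, and the medians were -0.29 and -0.17. Against the shares over all genes just given, 8 genes are too few for these counts to be read. Src itself was at 218 CPM in control, 160 in UVR, 167 after retinol and 171 after 9-cis HPR, so it too was highest in control, at a much smaller difference. Ctnnb1, the catenin of adherens junctions, was at 141, 64.5, 45.2 and 58.4 CPM.

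Other voltage-gated potassium channels were mostly too sparse to count. Of 33 in the files, 5 reached 20 UMIs; none was 2-fold higher, 1 was 2-fold lower in each treatment, and the medians were -0.60 and -0.62, which over 5 genes is read no further. Kcnq5, the most abundant of them, was at 18.4, 36.3, 35.3 and 49.6 CPM in control, UVR, retinol-treated and HPR-treated skin.

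Sulfotransferases and the genes that supply their donor PAPS gave 4 measured members of 15, none 2-fold higher and 1 lower in each treatment, with medians of 0.04 and 0.08, again too few to read against all genes. Slc35b2, which carries PAPS into the Golgi, was at 39.9, 40.3, 55.8 and 44.0 CPM, and Bpnt1, a phosphatase that removes the used donor, at 15.3, 43.8, 53.0 and 44.8 CPM. None of 29 other mucus-type genes reached 20 UMIs in the comparisons with UVR. The most abundant of these, Clca2 and Tff1, had 28 and 19 UMIs over all 4 sections, so Fcgbp was measured here without the mucus genes it is usually found with.

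Of the genes of retinoid response and metabolism, 17 were measured. After retinol 1 was 2-fold higher and 3 were 2-fold lower, and after 9-cis HPR none and 2. These counts are near the shares over all genes, and the medians of -0.38 and -0.14 stand beside -0.11 and -0.15 over all genes. Fabp5, a carrier of fatty acids and retinoic acid, was at 1806, 5710, 4381 and 5825 CPM in control, UVR, retinol-treated and HPR-treated skin. Crabp2, the retinoic acid carrier of epidermis, was at 589, 1688, 1030 and 1231 CPM, higher in UVR skin than in control, where Srcin1, Was and Fcgbp were lower.

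Likeness between genes was described over 12 points, the 3 layers of the 4 sections, as Pearson correlation of log levels; the points share libraries and tissue, so no p is given. Among the 5 genes, Fcgbp and Sult5a1 were the most alike (r = 0.83), followed by Fcgbp and Srcin1 (0.79) and by Sult5a1 and Srcin1 (0.73), the 3 genes of the outer layer. Kcnc4 and Was ran opposite (-0.76), one high in muscle and the other in the dermal layer. Kcnc4 had no UMI at any dermal point, so that value rests in part on levels too low to be counted. Fcgbp and Sult5a1 likewise had few or no UMIs at the dermal and muscle points, so their values largely reflect the split between layers. Among 2380 genes, Wnt3 (0.89), Ring1 (0.89) and Nipal4 (0.87) were the most like Fcgbp, Letm1 (0.94), Sertad1 (0.92) and Ring1 (0.90) the most like Sult5a1, and Ndufaf8 (0.93), Pdk1 (0.91) and Ndufa12 (0.90) the most like Kcnc4. Tnk2 (0.94), Lratd1 (0.92) and Rapgefl1 (0.92) were the most like Srcin1, and Crlf2 (0.97), Sh2b2 (0.96) and Tnfaip2 (0.95) the most like Was. Wnt3 had the section order of Fcgbp, at 218 CPM in control, 56.3 in UVR, 379 after retinol and 270.4 after 9-cis HPR, except that HPR-treated skin was above control. Tnk2, a tyrosine kinase gene, shared the order of Srcin1 with smaller differences, at 2343, 1169, 1775 and 1668 CPM.

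The higher levels in treated skin were spread over many spots and not carried by a few. The fullest spot held 2.14% to 4.81% of a gene's UMIs in the treated sections, and the fullest 10 spots held 16.6% to 28.9% of a gene's UMIs in the treated sections. At full depth, Fcgbp was seen in 166 of 353 outer spots after retinol (47.0%) and in 26 of 420 in UVR skin (6.19%), although UVR spots were deeper. With each spot thinned to 500 UMIs, which left out 80 to 139 shallower outer spots a section, Srcin1 was seen in 55.5% of outer spots in control (47.0 to 63.7), 18.3% in UVR (14.3 to 22.8), 46.9% after retinol (40.8 to 53.0) and 49.1% after 9-cis HPR (43.0 to 55.2). The share in UVR skin lies below the intervals of the other 3. Thinned shares of Fcgbp were 4.11%, 1.50%, 11.4% and 6.27%, and those of Was 3.42%, 4.79%, 8.79% and 9.96%, near what single UMIs give and read no further. In muscle spots, which should lack a surface gene, Srcin1 was seen in 7 of 167 spots in UVR skin and 14 of 134 after retinol at full depth.

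Both sides of each section, left and right of its median image column, gave treated over UVR ratios above 2 for all 5 genes. Since this contrast chose the genes, that is a description only. The sizes differed for Sult5a1 after retinol, with 6.14 on the left and 21.3 on the right, and for Was after retinol, with 2.98 and 8.62. Was after 9-cis HPR gave 2.53 and 7.99. For Fcgbp after retinol they were 37.4 and 18.3. Sides of a section are not replicates, and these values show the spread within a single piece of skin.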

How the data were processed

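Raw UMI counts per gene and spot were deposited by the authors, using Space Ranger 2.0.0 (per the submitters' processing notes, in which mm10 and Seurat 4.1.0 are listed as well). Per the labels' protocols, fresh-frozen tissue was put through a probe-based kit meant for fixed tissue; a probe set reads chosen stretches of a transcript, so levels were compared within a gene. The members and lists were chosen with earlier results of these data known. Counts of spots with at least 200 UMIs were summed per section or layer and divided by the total. Ratios used no pseudocount and Clopper-Pearson 95% intervals, and counts over all genes needed 100 UMIs over both sections (20 for gene lists). Layers came from Leiden clusters (scanpy 1.11.5, 2000 variable genes without members and lists, 20 components, 15 neighbours, resolution 0.5); a layer took the muscle or dermal name at a median marker log2 fold of at least 2. Named list genes are the 2 with most UMIs of each list (1 of them is not reported here), and the 3 genes most like each member are named (log2 of CPM plus 10, at least 200 UMIs). Ratios were tested on simulated data. Alternatives covered scaling, spot and gene filters, thinning, image sides, layer definitions and the reading of upper and lower. Python 3.11.15, numpy 2.4.6, scipy 1.17.1 and pandas 2.3.3 were used.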

Additional observations from a re-analysis of the deposited data

Results flagged for a closer look

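Fcgbp lay on opposite sides of control skin in the treated sections: the level was 2.73-fold that of control after 0.1% retinol (414 against 35 UMIs) and 0.775 of control after 0.03% 9-cis HPR (104 against 35 UMIs). The interval of the second ratio, 0.524 to 1.17, holds 1, and the doses differ. Under the reading of upper and lower from the spot grid the ratios to control would be 7.34 (retinol) and 25.8 (9-cis HPR), both above 1. With 1 section a group the difference was not tested.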

How the results depend on the processing

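Over 11 settings other than the grid reading, every ratio of the 5 genes to UVR skin stayed above 2. The contrast of treated over UVR skin chose the genes, so this is a description only. These ratios ran from 2.44 (Was after retinol, layers weighted alike) to 52.0 (Fcgbp after retinol, sections thinned to equal totals). Thinning to equal totals was a single random draw that left few Fcgbp UMIs in UVR skin, so its values carry sampling noise. Reading upper and lower from the spot grid reversed ratios. For retinol over UVR it gave 0.775 for Fcgbp, 0.669 for Srcin1 and 0.859 for Was, and for 9-cis HPR over UVR 0.720 for Srcin1 and 0.970 for Was. For UVR over control it gave 9.47 for Fcgbp, 6.85 for Srcin1 and 5.11 for Was, and for Srcin1 over control 4.58 (retinol) and 4.93 (9-cis HPR). For 9-cis HPR over retinol it gave 3.52 for Fcgbp, 1.92 for Sult5a1, 0.621 for Kcnc4 and 1.08 for Srcin1; with layers weighted alike the last was 1.11 instead of 0.930. The count of genes at least 2-fold higher in both treated skins, 60, became 97 under the grid reading, 28 on the left sides, 25 at equal totals, 177 with a minimum of 20 UMIs, 25 with a minimum of 500 UMIs, and 375 with no minimum and 1 CPM added. Among the 5 members the count was 2 under the grid reading and, because fewer members reached the gene minimum, 3 on each image side, 1 at equal totals and 1 with a minimum of 500 UMIs; members that could be counted there all passed. Rows of spots, the cornified-rich and basal-rich spots, the outer layer alone and the outer layer without its largest cluster were chosen after seeing the data. UVR over control moved by over 1.5 times for Was with layers weighted alike, to 0.380, and for Fcgbp at equal totals, to 0.0571, and in the first 3 rows, to 0.0518. Depth limits control skin most, where Kcnc4 and Sult5a1 rest on 12 and 15 UMIs. No paired analysis was possible because each group was 1 section.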
